A study of Mus musculus with 2 samples.

Results

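Cluster 1 is the number that the authors gave to 1 of 12 groups of natural killer (NK) cells in a droplet single-cell RNA sequencing library. Its members here are the cells numbered 1 in the deposited count matrix whose hashtag call was a single population and not a doublet. They were 1272 of 7479 such cells (17.0%). Of these, 1154 (90.7%) carried a spleen tag, 88 a bone marrow tag and 30 a tumour tag. The number 1 itself was set by the authors from the same counts, so what sets the cluster apart from other clusters is described below and not tested.

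The study asked how fasting acts on NK cells in different tissues of mice with a tumour. C57BL/6 mice, 12 weeks old, were injected under the skin with MC38 cells, a mouse colon carcinoma line, and were kept either on ad libitum feeding or on a cyclic fasting diet until the endpoint. NK cells were sorted as lineage-negative, NK1.1+ and CD49b+ cells. The deposited tag list names a fasted, a refed and an ad libitum population for tumour, bone marrow and spleen, and a naive population for spleen only. The strain label names no mutation or transgene. Apart from the naive population, nothing but the feeding state and the tissue separates the populations by their tags. The sources used here do not say what naive stands for, how long fasted and refed mice had been without food, or the number of mice behind a tag. A population was thus treated as 1 sample, no comparison has a replicate, and no p-value is given.

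NK cells are innate lymphocytes that kill tumour and infected cells with perforin and granzymes and release cytokines such as interferon-gamma. In mice they are made mainly in bone marrow and mature from CD27+ cells, which depend on factors such as TCF1, to CD11b+ cells that gain KLRG1, CX3CR1 and the exit receptor S1PR5 under the transcription factors T-bet and ZEB2. Fasting is known to raise glucocorticoids in the blood, and NK cells carry the glucocorticoid receptor.

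A cell's population was read from an antibody-borne DNA tag. The tags of the 7 spleen and bone marrow populations are shown in full in capitals, as deposited. Every comparison between feeding states and tissues rests on telling such tags apart.
spleen fasted: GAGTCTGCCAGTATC
spleen refed: TATAGAACGCCAGGC
spleen ad libitum: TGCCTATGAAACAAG
spleen naive: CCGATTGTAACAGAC
bone marrow fasted: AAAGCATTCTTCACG
bone marrow refed: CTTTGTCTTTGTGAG
bone marrow ad libitum: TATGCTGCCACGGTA

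The spleen gave 341 fasted, 314 refed, 290 ad libitum and 209 naive cluster 1 cells. Their summed counts of unique molecular identifiers (UMIs, 1 per captured RNA molecule) were 1344743, 1723483, 1715278 and 1096170 in that order. Fasted spleen cells were shallower, with a median of 3453 UMIs per cell, against 4846.5 in refed, 4978.5 in ad libitum and 4734 in naive cells. The bone marrow gave 9 fasted, 32 refed and 47 ad libitum cells and the tumour 26, 2 and 2. Across populations cluster 1 cells had a median of 4543.5 UMIs, against 4384 in the cells of other clusters. All cells came from 1 library, in which 0 barcodes were repeated. Of the cluster 1 barcodes that the authors classified, 34.4% were called doublets and left out, a share that ran between 22.6% and 80.3% in the other clusters.

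Levels are in CPM: UMIs of a gene were added up over the cells of a population and scaled so that every population has the same total. Differences are log2 ratios of CPM + 5, which understate the change of genes at low levels. A range in brackets is the 95% interval of counting error. It does not cover differences between mice, which cannot be measured here. A gene is said to have risen or fallen when its log2 ratio was at least 0.5 in size and its interval left out 0. Genes were counted when they reached 50 CPM on at least 1 side, and members of gene lists when they reached 20 CPM. In pooled cells, more cells that express a gene and more RNA per cell cannot be told apart from a summed level.

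The labelled cell type was checked first. All 16 genes of a list of NK identity were detected in each spleen population of cluster 1, and their summed level was 31408 CPM in fasted, 30398 in refed, 30221 in ad libitum and 29486 in naive cells. Ncr1, which encodes the activating receptor NKp46, stood at 1040 CPM in fasted, 1083 in refed, 1221 in ad libitum and 1166 in naive spleen cells. Eomes, a transcription factor of conventional NK cells, ranged between 248 and 278 CPM in these populations. Both genes were at like levels in all 4 populations.

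Markers of other cell types were low in the spleen cells of cluster 1. Over all its spleen cells, 3 of 12 T cell markers had no UMI, among them Cd4 and Cd8a, and Cd3e had 13 UMIs. The summed level of that list was 736 CPM, most of it from Trbc1 with 350 CPM and Trbc2 with 278 CPM, the constant regions of the T cell receptor beta chain. Of 12 monocyte and macrophage markers 1 had no UMI and 6 were under 5 CPM, and the list summed to 86.7 CPM. The 12 neutrophil markers summed to 38.1 CPM and the 7 erythroid markers to 11.6 CPM. The 9 B cell markers in the file summed to 106 CPM and the 10 dendritic cell markers to 499 CPM, of which 398 CPM came from Irf8. Of genes that mark group 1 innate lymphoid cells, Itga1 had 8 UMIs, Cxcr6 had 2 and Zfp683 had none. A count of 0 allows up to 3 UMIs. T cell markers were higher in the bone marrow cells of the cluster, as given with the tissues below.

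The profile of cluster 1 was nearest to those of clusters 3, 4, 2 and 5. The correlation of log levels over 4232 genes was 0.990 with cluster 3, 0.985 with cluster 4 and 0.984 with both others, given as a description over genes that share 1 library. Set against all other clusters together, within each of the 6 populations that had at least 30 cells on both sides, cluster 1 had few genes of its own. A gene counted here when its mean log2 ratio was at least 0.5 in size and its sign was the same in every population. Of 2749 genes 3 were higher (0.109%) and 23 were lower (0.837%).

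The lower genes were mostly those of dividing cells. Hist1h1b, a replication-dependent linker histone, had a mean log2 ratio of -2.25, Ube2c, which helps to end mitosis, -1.94, Cenpf, a kinetochore protein, -1.86, and Birc5, a subunit of the chromosomal passenger complex, -1.76. All 14 measured genes of the dividing-cell list were lower and 10 counted, with a median log2 ratio of -1.50, beside 0.13% of all genes higher and 0.927% lower by the same rule and a median of 0.02. This did not hold against the 2 most similar clusters: against clusters 3 and 4 alone the median of the list was 0.31. In spleen cells Mki67, a gene of dividing cells, ranged from 10.0 to 18.6 CPM in cluster 1 and from 8.56 to 17.1 CPM in cluster 2. In cluster 5 it ranged from 18.7 to 70.8 CPM, above cluster 1 in every spleen population. The 3 higher genes were Card6 (0.59), Camk2n1 (0.56), an inhibitor of the kinase CaMKII, and Phactr3 (0.51), and the signs of Camk2n1 and Phactr3 were opposite against clusters 3 and 4 alone, at -0.060 and -0.034. Over the 4 spleen populations by themselves 0 of 2734 genes were higher and 5 (0.183%) were lower. Those 5 were Birc5, Top2a, Hist1h1b, Klrg1 (-0.85) and Timp2 (-0.59).

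Several genes of NK maturation, though not all, had levels in the spleen cells of cluster 1 between those of cluster 2 and those of clusters 3 to 5. Tcf7, the gene of TCF1, ranged from 48.3 to 75.7 CPM over the 4 spleen populations of cluster 1. It ranged from 72.5 to 121 CPM in cluster 2, from 20.2 to 23.3 CPM in cluster 3, from 15.1 to 38.9 CPM in cluster 4 and from 8.83 to 24.5 CPM in cluster 5. The ranges of clusters 1 and 2 overlapped, and every population of cluster 1 was above those of clusters 3, 4 and 5.

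Ltb, which encodes lymphotoxin beta and is high in immature NK cells, did not overlap with its neighbours on either side. It stood at 115 CPM in fasted, 140 in refed, 150 in ad libitum and 205 in naive cells of cluster 1, against 254 to 376 CPM in cluster 2 and 36.7 to 90.9 CPM in cluster 3. Klrg1, an inhibitory receptor of mature NK cells, stood at 82.5 CPM in fasted, 70.2 in refed, 82.8 in ad libitum and 76.6 in naive cells of cluster 1. In cluster 2 it ranged from 23.5 to 37.1 CPM, in cluster 3 from 160.0 to 242 CPM, in cluster 4 from 179 to 226 CPM and in cluster 5 from 152 to 208 CPM. So Klrg1 was above cluster 2 and below the other 3 clusters in every spleen population. Cx3cr1, a chemokine receptor of mature circulating NK cells, ranged from 7.44 to 19.2 CPM in cluster 1, against 1.68 to 5.71 CPM in cluster 2 and 41.4 to 114 CPM in cluster 3.

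Granzyme A followed the same order. Gzma ranged from 10714 to 12609 CPM in cluster 1, from 6086 to 7718 CPM in cluster 2 and from 18428 to 20123 CPM in cluster 3, with no overlap among the 3 clusters. Cma1, a mast cell protease gene that mature mouse NK cells also express, ranged from 171.5 to 283 CPM in cluster 1, from 58.0 to 85.7 CPM in cluster 2 and from 337 to 449 CPM in cluster 3. Itgam, which encodes CD11b, was closer to the mature side. It ranged from 122 to 155 CPM in cluster 1, against 40.9 to 61.4 CPM in cluster 2 and 157 to 192 CPM in cluster 3. In cluster 4 it ranged from 184 to 219 CPM and in cluster 5 from 147 to 194 CPM, so that clusters 1 and 5 overlapped. Zeb2 likewise averaged 367 CPM over the populations of cluster 1, against 177 CPM in cluster 2 and 399 CPM in cluster 3. Its range in cluster 1, from 337.5 to 379 CPM, lay inside that of cluster 3, from 308.5 to 491.5 CPM. That range was below those of cluster 4, from 600 to 718 CPM, and cluster 5, from 413 to 499 CPM. Ly6c2, a surface protein of mature NK cells, and Kcnj8, a potassium channel subunit, did not follow this order. Ly6c2 averaged 514 CPM in cluster 1, against 231 CPM in cluster 2, 411 CPM in cluster 3 and 1245 CPM in cluster 4, and it was above cluster 3 in all populations but the naive one. Kcnj8 ranged from 34.4 to 69.9 CPM in cluster 1, against 5.71 to 16.8 CPM in cluster 2, 21.1 to 50.7 CPM in cluster 3 and 136 to 156 CPM in cluster 4, so that clusters 1 and 3 overlapped.

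**Figure D1:**
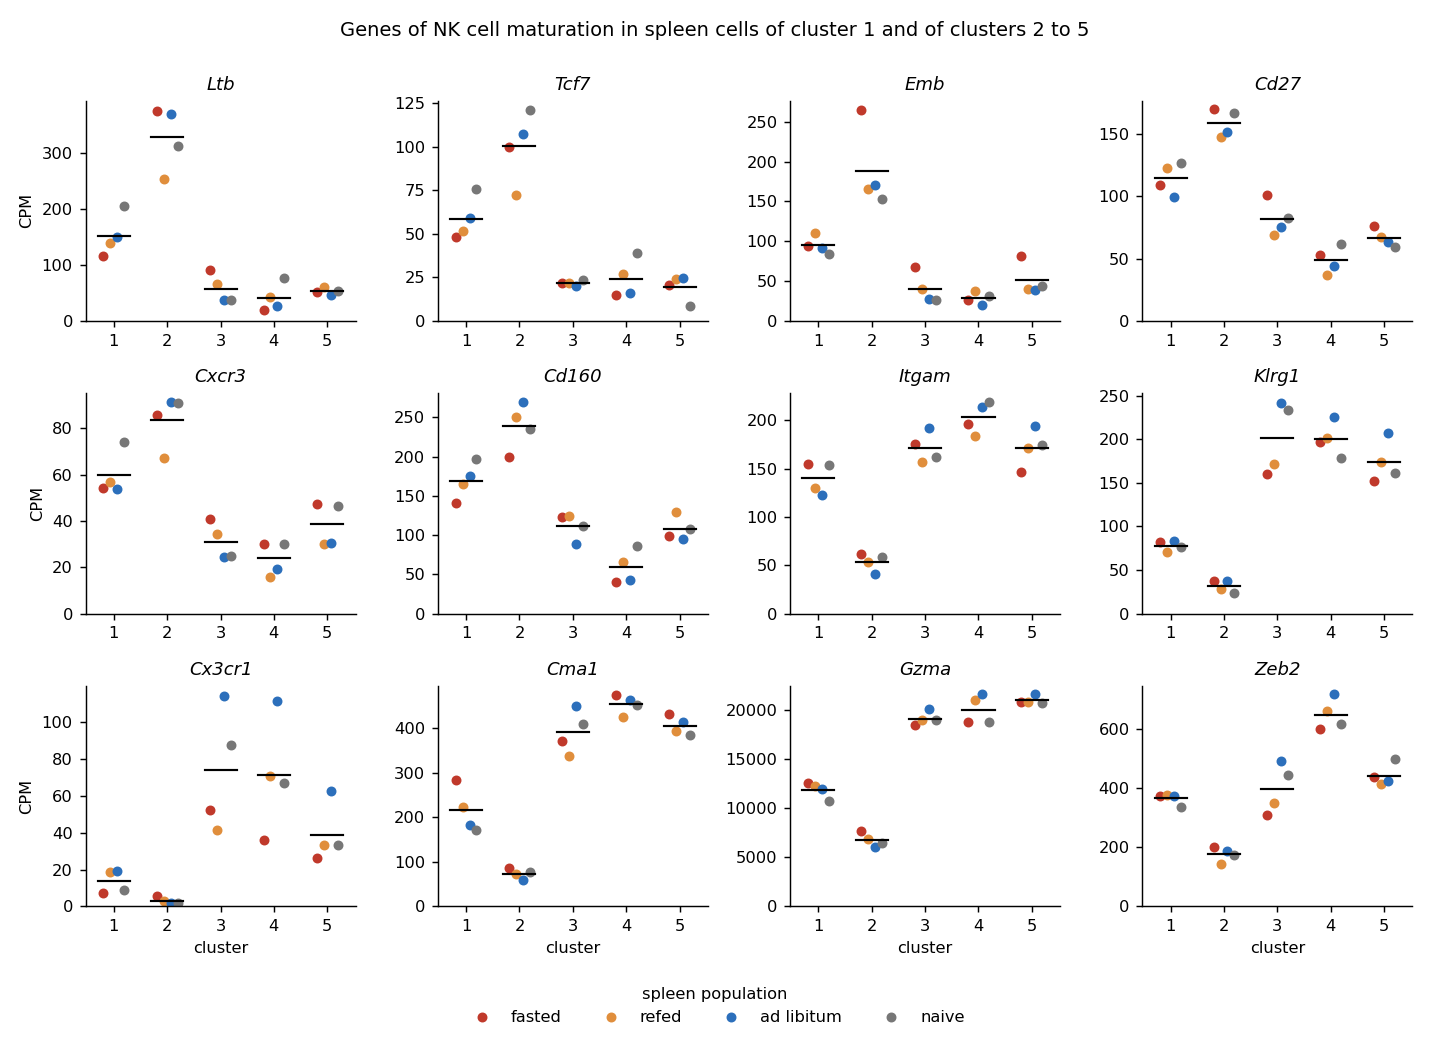
Each panel plots the level of 1 gene in CPM (y axis, from 0) in spleen cells of clusters 1 to 5 (x axis), with 1 point per spleen population, coloured by population, and a bar at their mean. Ltb, Klrg1, Cma1 and Gzma of cluster 1 lie between cluster 2 and clusters 3 to 5 in every population, and Itgam of cluster 1 lies well above cluster 2.

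The gene lists gave the size of these steps. Against cluster 2, cluster 1 had 147 higher genes (5.38% of 2732) and 27 lower genes (0.988%). The higher ones included Gzmb, the gene of granzyme B (mean log2 ratio 1.51), Cma1 (1.48), Itgam (1.32), the chemokine gene Ccl4 (1.25), Klrg1 (1.21), Zeb2 (1.04) and Prf1, the gene of perforin (1.00). The lower ones included Cd3d (-1.89), Ltb (-1.09), Emb (-0.92) and Tcf7 (-0.72). Ltb and Tcf7 are also T cell genes, and 1.39% of the spleen cells of cluster 1 had at least 3 UMIs of Cd3 genes, against 8.19% in cluster 2. Without such cells, a comparison added after these values were seen, the ratios were -0.08 for Cd3d, -0.90 for Ltb, -0.85 for Emb and -0.62 for Tcf7. Of the mature NK list 11 of 12 measured genes were higher and 10 counted, with a median of 1.08. Of the immature NK list 11 of 14 were lower and 5 counted, with a median of -0.46, and of -0.41 without cells with Cd3 genes. Of the immediate early genes, which cells induce within minutes of a stimulus, 22 of 23 were higher and 14 counted, with a median of 0.60. Over all genes at 20 CPM the same rule gave 6.51% higher and 0.991% lower, with a median of 0.15.

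The steps to clusters 3 and 4 differed from each other. Against cluster 3, 63 genes were higher (2.32% of 2716) and 9 lower (0.331%). Cx3cr1 (-2.05), Klrg1 (-1.30), Ccl5 (-0.90), a chemokine, and Gzma (-0.69) were lower, and Ltb (1.39), Cxcr4, a receptor that holds NK cells in bone marrow (1.35), and Xcl1, a chemokine for cross-presenting dendritic cells (1.29), were higher. Of the immature list 10 of 12 genes were higher and 8 counted, with a median of 0.69. Of the mature list 10 of 13 were lower but only 3 counted, with a median of -0.16. The same rule gave 3.21% of all genes higher and 0.356% lower, with a median of 0.09.

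Against cluster 4, 38 genes were higher (1.31% of 2907) and 48 lower (1.65%). Here both lists moved: 12 of 13 mature genes were lower and 10 counted, with a median of -0.82, and 10 of 12 immature genes were higher and 9 counted, with a median of 0.92. The same rule gave 1.21% of all genes higher and 1.86% lower, with a median of -0.08. Kcnj8 had a mean log2 ratio of -1.67, Ly6c2 -1.31 and Gzmb -0.87. Cd160, an NK receptor, had one of 1.49 and Cd27 of 1.16.

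Within the cluster, cells differed in Ly49 receptors, a family of receptors for MHC class I that single NK cells express in different combinations. Each cell was thinned to 1500 UMIs so that depth did not set the shares, which left 1149 spleen cells. Klra4, an activating Ly49 receptor gene, had a UMI in 66.7% of them (63.9 to 69.4%, exact binomial interval). Klra8, the gene of the activating receptor Ly49H, had a UMI in 56.4% (53.5 to 59.3%), and the inhibitory receptor genes Klra7 and Klra9 in 47.8% (44.9 to 50.7%) and 36.6%. Without thinning, at a median of 4379 UMIs, these shares were 76.6%, 71.8%, 68.3% and 54.2% in the same order. A background was taken from 67 cells with myeloid markers, with a median of 11649 UMIs. They came from the same NK cell sort, and whether they lack these genes was not tested. Their thinned shares were 8.96% for Klra4, 4.48% for Klra8, 17.9% for Klra7 and 2.99% for Klra9. All 4 shares in cluster 1 were above these. The Ly49 genes are near copies of each other, so reads may have been divided among them in counting, and their levels are uncertain.

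Klra9 and Klra4 are given beside their neighbouring clusters. The thinned Klra9 share of 36.6% in cluster 1 stood against 20.3% in cluster 2, 43.3% in cluster 3 and 57.2% in cluster 4. Klra4 had 66.7% in cluster 1, against 53.6%, 51.8% and 63.3% in clusters 2, 3 and 4. Cd27 had a UMI in 14.4% of thinned cluster 1 cells and 36.9% without thinning, against 4.48% of the thinned cells with myeloid markers. For Itgam the share was 19.4% thinned and 44.2% without thinning. This was below the 26.9% of the thinned cells with myeloid markers, and myeloid cells express CD11b themselves.

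The spread among cells was read from the variance of UMIs over their mean, which is 1 for counting error alone. For a gene that varies among cells this ratio also grows with the mean, so a rank by it mixes level and spread. Mean UMIs per thinned cell were 16.5 to 19.5 for Gzma and 49.3 to 52.2 for Malat1. They were 0.63 to 1.17 for Ly6c2 and 2.01 to 2.58 for Klra4. Ranked by the lowest value of the ratio over the 4 spleen populations, the first of 843 genes were Gzma, Ccl5, the nuclear RNA Malat1, Ly6c2, S100a6 and Tmsb4x, followed by Klra4. It ranged from 3.49 to 4.4 for Gzma, from 2.88 to 4.17 for Ccl5, from 2.84 to 3.68 for Malat1 and from 2.73 to 3.72 for Ly6c2. It ranged from 2.19 to 2.57 for Klra4 and from 2.10 to 2.43 for Klra8. Ccl4, with 2.11 to 5.66, and Xcl1, with 1.69 to 5.10, differed widely between populations.

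The first comparison between feeding states asked what fasting did to spleen cells of cluster 1. Of genes that glucocorticoids induce 7 of 14 measured ones rose, and 9 of 10 interferon-induced genes and 5 of 9 cytokines and chemokines fell. In fasted against ad libitum cells, 86 genes rose (2.97% of 2896) and 65 fell (2.24%). Beside this stands the lower median depth of fasted cells, 3453 against 4978.5 UMIs. With cells thinned to 1500 UMIs, 124 genes rose and 87 fell, and the part of depth was not tested beyond this. With factors from the trimmed mean of M values (TMM) in place of total counts, 51 genes rose.

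Tsc22d3, which encodes the anti-inflammatory protein GILZ and is a direct target of the glucocorticoid receptor (chromosome X, 140539528 to 140600659, mm10), stood at 286 CPM in fasted spleen cells, against 98.6 in refed, 103 in ad libitum and 74.8 in naive cells. The fasted population was the only one of these above the rest, and its log2 ratio to ad libitum was 1.43 (1.17 to 1.68). The rise was spread over cells: 219 of 341 fasted cells had a UMI of Tsc22d3, and in thinned cells the share was 32.9% (28.0 to 38.2%), against 13.5% (9.81 to 18.0%) in ad libitum cells. Fkbp5, which encodes a co-chaperone of that receptor, stood at 80.3 CPM in fasted, 33.7 in refed, 32.6 in ad libitum and 29.2 in naive cells, with a log2 ratio of 1.18 (0.75 to 1.61).

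Pik3ip1, an inhibitor of phosphoinositide 3-kinase, had the highest ratio of the named genes. It stood at 86.3 CPM in fasted, 19.7 in refed, 20.4 in ad libitum and 15.5 in naive cells, with a log2 ratio of 1.84 (1.37 to 2.32). Txnip, an inhibitor of glucose uptake, stood at 587.5 CPM in fasted, 277 in refed, 240.2 in ad libitum and 277 in naive cells (1.27, 1.10 to 1.45). Again the fasted population alone was high for both. Ddit4, which restrains the growth kinase mTORC1, rose as well (0.75, 0.34 to 1.16). Of the 14 measured members of the glucocorticoid target list 12 were higher and 7 rose, with a median of 0.66. By the same rule 4.3% of all genes rose and 2.91% fell, with a median of 0.04. Cxcr4, a member of this list, stood at 62.5 CPM in fasted and 66.5 CPM in ad libitum cells (-0.08).

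Metabolic lists moved little. Cpt1a, the gate enzyme for fatty acids entering mitochondria, was low but rose, with 43.9 CPM in fasted, 23.2 in refed, 9.91 in ad libitum and 14.6 in naive cells (1.71, 1.11 to 2.29). It was the only called member among 16 measured fatty acid oxidation genes, of which 14 were higher, with a median of 0.14. Of 32 genes of oxidative phosphorylation 28 were lower and none fell, with a median of -0.12. Outside the metabolic lists, of 16 genes linked to FOXO and KLF2, factors of lymphocyte quiescence, 13 were higher and 3 rose, with a median of 0.21. Among all genes at 20 CPM or more, 4.3% rose and 2.91% fell.

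Most interferon-induced genes fell. Isg15, a ubiquitin-like protein (chromosome 4, 156199424 to 156200818), stood at 26.8 CPM in fasted, 85.9 in refed, 88.0 in ad libitum and 43.8 in naive cells, with a log2 ratio of -1.55 (-2.03 to -1.08). Bst2, which encodes the antiviral protein tetherin, stood at 48.3 CPM in fasted, 91.7 in refed, 104 in ad libitum and 63.9 in naive cells (-1.03, -1.42 to -0.64). Irf7, a transcription factor that amplifies the interferon response, stood at 39.4 CPM in fasted, 76.6 in refed, 77.0 in ad libitum and 43.8 in naive cells (-0.88, -1.32 to -0.46). In summed levels of these 3 genes fasted and naive cells were low and refed and ad libitum cells were high.

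All 10 measured members of the interferon list were lower and 9 fell, with a median of -0.82, against 2.91% of all genes that fell. The exception was Ifi203, at 252 CPM in fasted and 282 CPM in ad libitum cells (-0.16). Isg15 was found in few cells: 36 UMIs lay in 32 of 341 fasted cells, and 151 UMIs lay in 58 of 290 ad libitum cells, of which the 10 highest cells held 54.3%. In thinned cells the shares with a UMI were 3.82% (2.05 to 6.45%) in fasted and 6.60% (4.02 to 10.1%) in ad libitum cells, with intervals that overlap. For Irf7 the thinned shares were 6.47% in fasted, 9.90% in refed, 6.60% in ad libitum and 4.81% in naive cells, so the share of fasted cells was close to that of ad libitum cells. For Bst2 they were 7.06% in fasted and 10.8% in ad libitum cells, with intervals that overlap too. The summed levels of the same thinned cells had log2 ratios of -1.32 for Isg15, -0.86 for Irf7 and -0.88 for Bst2.

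The promoters of interferon genes are shown because 9 of 10 measured members of the list fell. RefSeq promoters of the build GRCm38.p6, 250 bases before each start, were searched on both strands for GAAA and GAAA with 2 bases of any kind between them, a core of the interferon-stimulated response element. Of 32851 promoters 2.98% held it, and 3.46% of 27025 genes had it in at least 1 promoter. Of the 6 measured list members with a promoter in the table, 4 held it, namely Isg15, Ifit3, Bst2 and Ifi203, and Irf7 and Xaf1 did not. Ifi203 held the motif and was the member that did not fall. The windows of 100 bases below read along the gene's strand, and capitals mark the matches, which overlap in Isg15 and Bst2 and lie on the reverse strand in Ifit3. A match describes these letters and is not evidence of binding.
Isg15 promoter window, chr4:156200830-156200929, minus strand: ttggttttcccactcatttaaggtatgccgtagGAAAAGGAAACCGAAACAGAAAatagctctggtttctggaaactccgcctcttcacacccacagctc
Bst2 promoter window, chr8:71537542-71537641, minus strand: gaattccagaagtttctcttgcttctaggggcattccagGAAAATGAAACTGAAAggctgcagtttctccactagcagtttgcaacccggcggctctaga
Ifit3 promoter window, chr19:34583362-34583461, plus strand: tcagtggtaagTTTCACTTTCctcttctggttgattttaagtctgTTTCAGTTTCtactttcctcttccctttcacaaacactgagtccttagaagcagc

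Ifit3, an inhibitor of viral RNA translation, was at the low end of detection, with 3.72 CPM in fasted, 16.2 in refed, 21.6 in ad libitum and 4.56 in naive cells (-1.61, -2.19 to -0.84). For the glucocorticoid targets the searched letters were GNACA and TGTNC with 3 bases between them, the form of the palindromic receptor site. On either strand 0.387% of promoters held it, and 0.440% of genes had it in at least 1 promoter. Of 13 measured members with a promoter 2 held it, Sgk1 and Txnip. The Txnip window is shown because its gene was among those that rose.
Txnip promoter window, chr3:96557740-96557839, plus strand: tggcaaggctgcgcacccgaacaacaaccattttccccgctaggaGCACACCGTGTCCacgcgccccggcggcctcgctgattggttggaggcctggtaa

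Some secreted factors also fell with fasting. Xcl1 stood at 207 CPM in fasted, 559 in refed, 633 in ad libitum and 556.5 in naive cells, with a log2 ratio of -1.59 (-1.78 to -1.40). The fasted population alone was low, and the share of thinned cells with a UMI of Xcl1 was 19.4% in fasted, 37.1% in refed, 35.8% in ad libitum and 38.5% in naive cells. Ccl4, a chemokine that attracts other lymphocytes and myeloid cells, stood at 445 CPM in fasted, 906 in refed, 900.0 in ad libitum and 659.6 in naive cells (-1.01, -1.15 to -0.87). Ifng, the gene of interferon-gamma, stood at 152 CPM in fasted, 251 in refed, 257 in ad libitum and 206 in naive cells (-0.74, -0.98 to -0.51). In thinned cells the log2 ratio of Ifng was -0.45. Of 9 measured cytokines and chemokines 7 were lower and 5 fell, with a median of -0.63. Ccl5, the most abundant member, was higher at 21541 CPM in fasted and 17615 CPM in ad libitum cells (0.29), below the size set for a rise. With it the summed level of the list was higher in fasted cells, at 23214 CPM against 20660.2 CPM in ad libitum cells. Nr4a1, an immediate early gene induced through activating receptors, was lower as well, at 17.1 CPM in fasted, 60.3 in refed, 51.3 in ad libitum and 41.1 in naive cells (-1.35).

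Genes of the killing machinery were mostly lower, but few counted as changed. Gzma had a log2 ratio of 0.08 and Prf1 of -0.12, and Gzmb stood at 662 CPM in fasted, 892 in refed, 921 in ad libitum and 685 in naive cells (-0.47), none of which counted. Of 14 measured cytotoxic effectors 12 were lower and 2 fell, with a median of -0.13. By the same rule 4.3% of all genes rose and 2.91% fell. Gzmc, a granzyme of strongly activated NK cells, fell, with 113 CPM in fasted, 76.6 in refed, 314 in ad libitum and 108 in naive cells (-1.43, -1.69 to -1.18). Of its 538 UMIs in ad libitum cells, 242 lay in 1 cell. Without the highest cell of each population the log2 ratio was -0.65, and with the same weight for every cell it was -0.25. Plac8 was similarly concentrated, since the 10 highest ad libitum cells held 79.9% of its UMIs (log2 ratio -1.76, and -1.17 with the same weight per cell).

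Some genes of mature NK cells were higher in the fasted spleen cells placed in cluster 1. Ly6c2 stood at 720 CPM in fasted, 505 in refed, 477 in ad libitum and 352 in naive cells (0.59, 0.45 to 0.72). Cma1 stood at 283 CPM in fasted, 223 in refed, 182.5 in ad libitum and 171.5 in naive cells (0.62, 0.41 to 0.84). In thinned cells these ratios were 0.35 for Ly6c2 and 0.33 for Cma1, below the size set for a rise. Kcnj8 stood at 69.9 CPM in fasted, 35.4 in refed, 34.4 in ad libitum and 40.1 in naive cells (0.93, 0.49 to 1.37). The fasted population was the highest for all 3. Of 12 measured genes of the mature list 9 were higher and 4 rose, with a median of 0.31. The median of the immature list was -0.03. Il7r, the interleukin-7 receptor chain of immature NK cells and of other lymphocytes, rose at a low level, with 30.5 CPM in fasted and 12.8 CPM in ad libitum cells (0.99). Il18r1, a receptor chain for interleukin-18, rose too, with 281 CPM in fasted and 191 CPM in ad libitum cells (0.55).

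**Figure D2:**
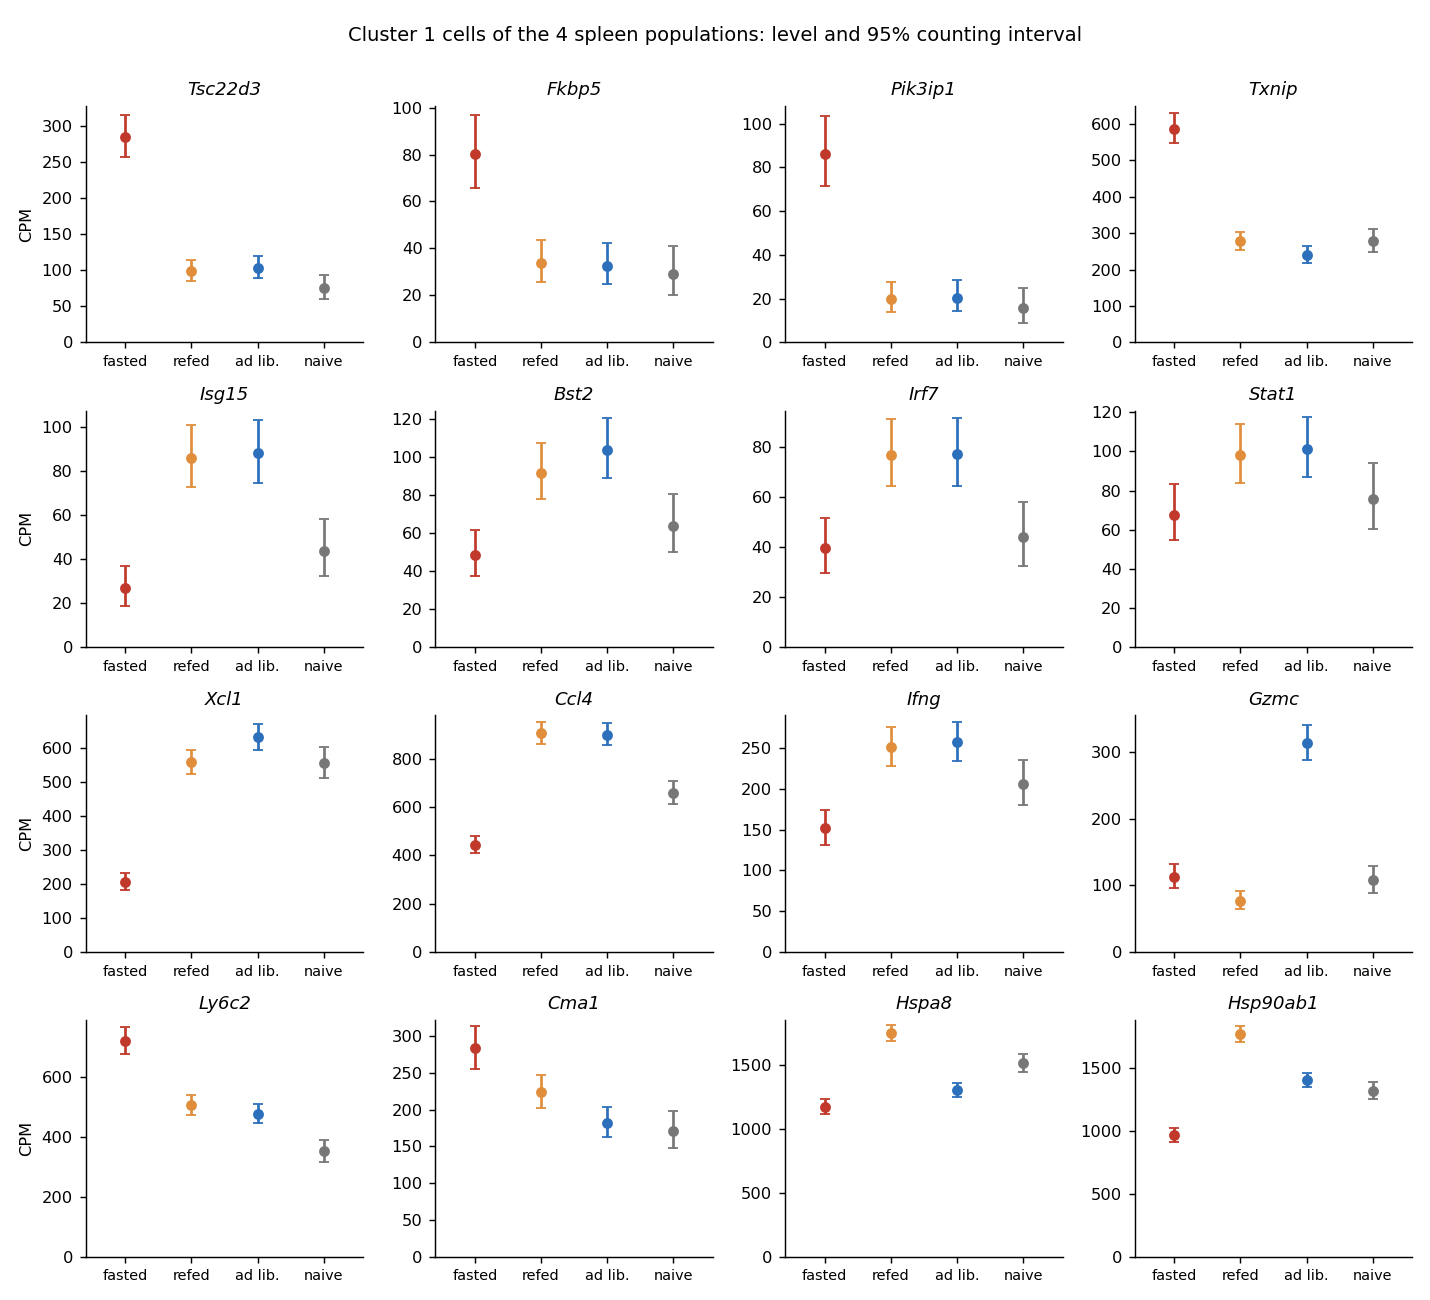
Levels in CPM (y axes, from 0) of 16 genes in spleen cells of cluster 1 by population (x axes), with points at the level of the population and bars for the 95% counting interval. Tsc22d3, Fkbp5, Pik3ip1 and Txnip are high in fasted cells alone, Xcl1, Ccl4 and Ifng are lowest there, and Isg15 and Irf7 are low in both fasted and naive cells.

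Refed spleen cells were set against fasted and against ad libitum cells to ask whether the changes of fasting were still present. The 3 comparisons share populations, so their values are given side by side and their likeness is not counted as a result. Against fasted cells, 60 genes rose (2.08% of 2888) and 104 fell (3.6%) in refed cells. With TMM factors 108 rose and 45 fell, so the balance of directions depends on the scaling. Against ad libitum cells 19 genes rose (0.677% of 2806) and 22 fell (0.784%) in refed cells.

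Refed cells differed from fasted cells in the glucocorticoid targets, of which 12 of 14 were lower and 8 fell, with a median of -0.75. Tsc22d3 had a log2 ratio of -1.49 and Pik3ip1 of -1.88. Of the interferon list 8 of 8 were higher and 6 rose, with a median of 0.64. Isg15 had a log2 ratio of 1.52 (1.05 to 1.99), and 0.91 in thinned cells. Over all genes at 20 CPM 2.49% rose and 4.93% fell, with a median of -0.06. Against ad libitum cells the medians of refed cells were -0.04 for the glucocorticoid list and -0.11 for the interferon list, beside -0.02 for all genes.

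Heat shock genes were high in refed cells. Hsp90ab1, a cytosolic chaperone, stood at 1770 CPM in refed cells, against 968 in fasted, 1406 in ad libitum and 1322 in naive cells. Its log2 ratio of refed to fasted was 0.87. Hspa8, the constitutive HSC70 chaperone, stood at 1751 CPM in refed cells, against 1172 in fasted, 1301 in ad libitum and 1515 in naive cells. The refed population was the highest of the 4 for both. All 10 measured members of the heat shock and dissociation stress list were higher in refed than in fasted cells and 8 rose, with a median of 0.71. Against ad libitum cells all 10 were higher and 4 rose, with a median of 0.50, beside 1.45% of all genes that rose and 2.37% that fell. These genes are also induced while tissue is dissociated, which was not tested. Calr and Pdia6, chaperones of the endoplasmic reticulum, rose too against fasted cells (0.96 and 0.97).

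Ad libitum cells were compared with naive cells to ask how that population differed. In ad libitum cells 43 genes rose (1.51% of 2850) and 43 fell (1.51%). Of the interferon list 9 of 10 were higher and 7 rose in ad libitum cells, with a median of 0.71, beside 2.19% of all genes that rose, 2.41% that fell and a median of -0.02. Isg15 had a log2 ratio of 0.93 and Irf7 of 0.75, from the levels given above. Gzmc and Plac8 (both 1.5) rose through the few cells described. Rgs1, a regulator of chemokine receptor signals, stood at 414 CPM in ad libitum and 224 CPM in naive cells (0.87). Odc1, which makes polyamines for growth, stood at 74.6 CPM in ad libitum and 36.5 CPM in naive cells (0.94). Rgs1 and Odc1 were higher in ad libitum than in fasted or refed cells as well.

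The log2 ratio of fasted to ad libitum spleen cells in cluster 1 was set against that of all other clusters, as the difference of both ratios. Membership was set from the same counts, so whether fasting acted differently on cells of cluster 1 cannot be told from it. Of 2896 genes 89 had a positive difference (3.07%) and 47 a negative one (1.62%) that counted. With TMM factors 42 were positive and 78 negative, so that the balance of signs depends on the scaling. For the glucocorticoid targets the differences were small. Tsc22d3 had a log2 ratio of 1.43 in cluster 1 and 1.27 in the other clusters, with a difference of 0.15 (-0.13 to 0.44). Pik3ip1 had 1.84 and 1.91 (difference -0.06, -0.60 to 0.48), and Txnip had 1.27 and 1.15 (difference 0.12). Of 14 measured members 1 counted as different, which was Cxcr4. Its log2 ratio was -0.08 in cluster 1 and 1.01 in the other clusters, but in thinned cells the difference was 0.08.

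Some genes of mature NK cells had ratios of opposite sign in cluster 1 and in the pool of the other clusters. Kcnj8 stood at 69.9 CPM in fasted and 34.4 CPM in ad libitum cells of cluster 1, and at 61.9 CPM in fasted and 76.5 CPM in ad libitum cells of the other clusters. The difference of the log2 ratios was 1.21 (0.73 to 1.70). Cma1 stood at 283 and 182.5 CPM in fasted and ad libitum cells of cluster 1, and at 317 and 348 CPM in those of the other clusters (difference 0.75, 0.52 to 0.99). Ly6c2 stood at 720 and 477 CPM in fasted and ad libitum cells of cluster 1, and at 641 and 676 CPM in those of the other clusters (difference 0.67, 0.51 to 0.82). In cluster 1 these levels were higher with fasting, and in the pool of the other clusters they were slightly lower. Single clusters did not all follow the pool, as values added after the differences were seen show. The log2 ratio of Ly6c2 was 0.07 in cluster 2, 0.21 in cluster 3, -0.16 in cluster 4 and 0.30 in cluster 5. That of Cma1 was 0.53 in cluster 2, -0.27 in cluster 3, 0.03 in cluster 4 and 0.06 in cluster 5. That of Kcnj8 was 0.74 (-0.30 to 1.64) in cluster 2, where it was hardly detected, and between -0.18 and -0.04 in clusters 3 to 5. Thus cluster 2 had the sign of cluster 1 for all 3 genes, but its interval of Ly6c2 (-0.19 to 0.34) held 0, as did that of Kcnj8. In thinned cells of cluster 2 the ratio was 1.14 for Kcnj8, 0.41 for Ly6c2 and -0.39 for Cma1, so the sign of Cma1 turned. Over the mature list 10 of 12 measured genes had a positive difference and 4 counted, with a median of 0.43. The median log2 ratio of fasted to ad libitum cells over that list was 0.31 in cluster 1, 0.13 in cluster 2, -0.22 in cluster 3, -0.12 in cluster 4 and -0.18 in cluster 5. Over all genes at 20 CPM 3.52% counted as positive and 2.16% as negative, with a median of 0.05.

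Genes of immature NK cells mostly had differences of the opposite sign. Ltb stood at 115 CPM in fasted and 150 CPM in ad libitum cells of cluster 1, and at 135 CPM in fasted and 98.3 CPM in ad libitum cells of the other clusters (difference -0.81, -1.13 to -0.48). Emb, the gene of the adhesion protein embigin, stood at 93.7 and 92.1 CPM in fasted and ad libitum cells of cluster 1, and at 116 and 64.7 CPM in those of the other clusters (difference -0.77). Of 13 measured immature genes 12 had a negative difference and 6 counted, with a median of -0.44. By single cluster the log2 ratio of Ltb was -0.36 in cluster 1, 0.03 in cluster 2 and 1.2 in cluster 3. It was -0.39 (-1.16 to 0.37) in cluster 4 and 0.14 (-0.57 to 0.82) in cluster 5, where the gene was low. In thinned cells the ratios of clusters 4 and 5 turned to 0.21 and -1.02, so their signs are uncertain. The other clusters are a mixture, so their pooled ratio also carries any change in which clusters made up the fasted and the ad libitum population, and that part was not tested. The shares of cluster 1 itself among the spleen cells, 24.5% in fasted and 16.1% in ad libitum cells, were set by a clustering on these same genes and are given as a description. For the same reason the ratios within cluster 1, and within each other cluster, carry any change in which cells were placed there. That part cannot be told apart from a change within cells and was not tested.

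Isg15, Irf7 and Bst2 had lower log2 ratios with fasting in cluster 1 than in the pool of the other clusters. Isg15 stood at 26.8 CPM in fasted and 88.0 CPM in ad libitum cells of cluster 1, and at 46.7 CPM in fasted and 70.6 CPM in ad libitum cells of the other clusters (difference -1.0, -1.53 to -0.48). Irf7 had log2 ratios of -0.88 in cluster 1 and -0.05 in the other clusters, and Bst2 of -1.03 and -0.29. All 10 measured members had a negative difference and 4 counted, with a median of -0.47. The median log2 ratio of the list was -0.82 in cluster 1, -0.29 in cluster 2, -0.41 in cluster 3, -0.33 in cluster 4 and -0.22 in cluster 5. By single cluster the ratio of Isg15 was -0.64 in cluster 2, -0.74 in cluster 3, -1.10 (-1.66 to -0.55) in cluster 4 and -0.22 in cluster 5. The intervals of cluster 2 (-1.29 to -0.004), cluster 3 (-1.20 to -0.29) and cluster 4 overlapped that of cluster 1 (-2.03 to -1.08). That of cluster 5 (-1.03 to 0.54) did not. In clusters 2 to 5 the ratios of Irf7 lay between -0.35 and 0.11 and those of Bst2 between -0.43 and -0.35. Every one of these Bst2 intervals overlapped that of cluster 1 (-1.42 to -0.64). For Irf7 those of clusters 2, 3 and 5 overlapped that of cluster 1 (-1.32 to -0.46), and that of cluster 4 did not. For Xcl1 cluster 1 was below the pool but not below every single cluster. Its log2 ratio was -1.59 in cluster 1 and -0.75 in the pool, but -1.80 in cluster 2, -1.04 in cluster 3, -1.09 in cluster 4 and -0.79 in cluster 5.

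**Figure D3:**
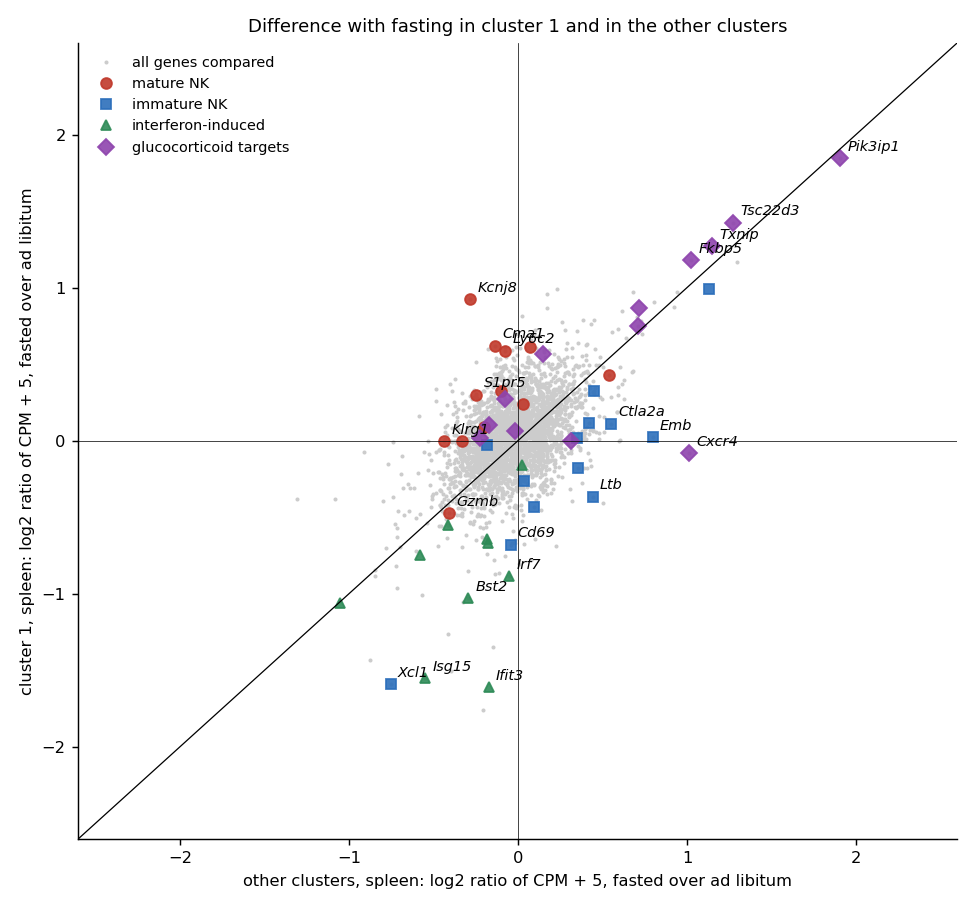
Each point is a gene, with the log2 ratio of CPM + 5 of fasted over ad libitum spleen cells in cluster 1 on the y axis and in the other clusters on the x axis. Coloured symbols mark members of 4 gene lists, grey points all genes compared, and the diagonal equal ratios. Glucocorticoid targets such as Tsc22d3 and Pik3ip1 lie near the diagonal, Kcnj8, Cma1 and Ly6c2 above it, and Ltb, Emb and Isg15 below it.

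The last comparison set the bone marrow cells of cluster 1 against its spleen cells, within ad libitum and within refed feeding. It rests on 47 and 32 bone marrow cells. The fasted bone marrow, with 9 cells, and the tumour, with 26 fasted, 2 refed and 2 ad libitum cells, were below the minimum of 30 cells and were not compared. In the ad libitum pair 83 genes rose (2.88% of 2885) and 129 fell (4.47%) in bone marrow. In the refed pair 143 rose (4.95% of 2891) and 202 fell (6.99%). Called in both pairs were 39 genes, 36 of them with the same sign and 28 of those lower in bone marrow. The 39 were 18.4% of the calls of the ad libitum pair, beside 4.95% of all genes that rose and 6.99% that fell in the refed pair. They were 11.3% of the calls of the refed pair, beside 2.88% of all genes that rose and 4.47% that fell in the ad libitum pair.

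Genes of mature NK cells and of recent activation were lower in bone marrow in both pairs. S1pr5, the receptor by which NK cells leave bone marrow, stood at 49.7 CPM in bone marrow and 112.5 CPM in spleen under ad libitum feeding (-1.10), and at 38.9 CPM in bone marrow and 115.5 CPM in spleen after refeeding (-1.46). Zeb2 stood at 196 CPM in bone marrow and 375 CPM in spleen (ad libitum, -0.92), and at 158.5 CPM in bone marrow and 379 CPM in spleen (refed, -1.23). Bone marrow was low for both genes in both feeding states. Of 12 measured mature genes 11 were lower in each pair. In the ad libitum pair 4 fell, with a median of -0.56, and in the refed pair 10 fell, with a median of -1.05. By the same rule 3.08% of all genes rose and 3.59% fell in the ad libitum pair, and 4.72% rose and 5.34% fell in the refed pair, with medians of -0.02 and -0.04.

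Chemokines and immediate early genes followed. Ccl3, a chemokine of activated NK cells, stood at 304 CPM in bone marrow and 831 CPM in spleen (ad libitum, -1.44), and at 233 CPM in bone marrow and 730.5 CPM in spleen (refed, -1.63). Ccl4 had log2 ratios of -1.23 and -1.18 in the ad libitum and refed pairs and Nr4a1 of -1.64 and -1.71. Hes1, a transcriptional repressor downstream of Notch, stood at 18.3 CPM in bone marrow and 85.1 CPM in spleen (ad libitum, -1.95), and at 5.98 CPM in bone marrow and 67.9 CPM in spleen (refed, -2.73). Of the immediate early list 21 of 24 genes were lower and 9 fell in the ad libitum pair, and 18 of 23 were lower and 10 fell in the refed pair. Both tissues were handled differently before sorting, since bone marrow was flushed and spleen was pressed through a strainer per the labels, and tissue and handling cannot be told apart.

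Several ratios were larger in size in the refed than in the ad libitum pair, a difference that was not tested. Gzma stood at 9150 CPM in bone marrow against 11948 CPM in spleen in the ad libitum pair (-0.38), and at 4849 CPM in bone marrow against 12249.6 CPM in spleen in the refed pair (-1.34). Klra4 had log2 ratios of -0.44 and -1.49 in the ad libitum and refed pairs, and its thinned share of cells was 58.7% in ad libitum and 31.2% (16.1 to 50%) in refed bone marrow. Ltb was higher in bone marrow, with log2 ratios of 0.97 and 2.06. Of the immature list 9 of 15 genes were higher and 3 rose in the ad libitum pair, with a median of 0.40, and 13 of 14 were higher and 8 rose in the refed pair, with a median of 1.01.

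T cell genes moved with these differences. Cd3d, a chain of the T cell receptor complex, stood at 128 CPM in bone marrow and 17.5 CPM in spleen (ad libitum, 2.57), and at 428 CPM in bone marrow and 22.6 CPM in spleen (refed, 3.97). The summed level of the T cell list was 1115 CPM in ad libitum and 2204 CPM in refed bone marrow, against 643 to 866 CPM in the spleen populations. The NK identity list stood at 24913 CPM in ad libitum and 18132 CPM in refed bone marrow. Cells with at least 3 UMIs of Cd3 genes were 6 of 47 in ad libitum and 12 of 32 in refed bone marrow, against 1 to 6 in each spleen population. Without such cells the median of the T cell list was -0.20 in place of 1.29 in the ad libitum pair, and 0.49 in place of 1.40 in the refed pair. The part of T cells in the other differences of bone marrow was not tested beyond this, and with them left out 123 genes fell in the refed pair in place of 202.

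Interferon-induced genes had opposite signs in the pairs. Isg15 stood at 39.3 CPM in bone marrow and 88.0 CPM in spleen under ad libitum feeding (-1.07), and at 161.5 CPM in bone marrow and 85.9 CPM in spleen after refeeding (0.87). In refed bone marrow its 54 UMIs lay in 11 of 32 cells, and 1 cell held 25 of them. The list had 10 of 10 genes lower and 4 that fell in the ad libitum pair, with a median of -0.71, and 11 of 13 higher and 5 that rose in the refed pair, with a median of 0.51. Genes of dividing cells were higher in ad libitum bone marrow, with 10 of 10 measured genes higher and 9 that rose (median 1.58), but few cells carried them: the 55 UMIs of Top2a, a topoisomerase of dividing cells, lay in 12 of 47 cells, and 28 of them in 1 cell.

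**Figure D4:**
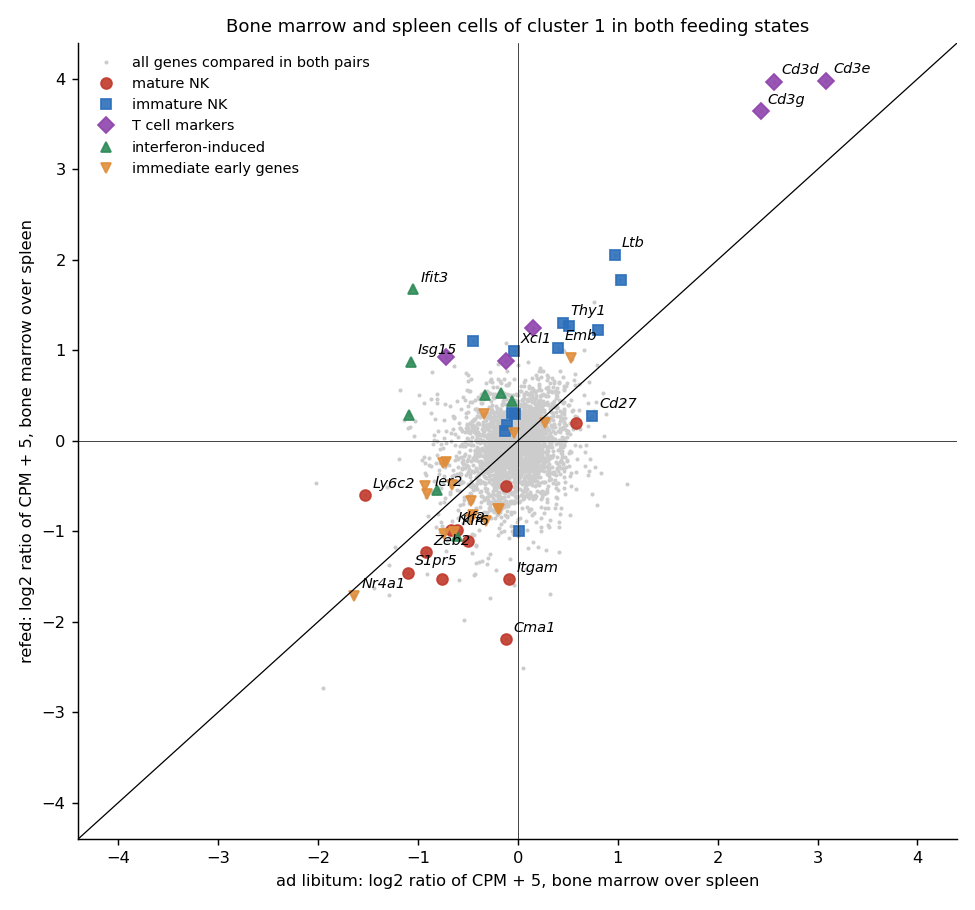
Each point is a gene in cluster 1, with the log2 ratio of CPM + 5 of bone marrow over spleen in the refed pair on the y axis and in the ad libitum pair on the x axis. Coloured symbols mark 5 gene lists and the diagonal marks equal ratios. S1pr5, Zeb2 and Nr4a1 are below 0 and Cd3d, Cd3e and Cd3g above 0 in both pairs, and Isg15 has opposite signs.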

How the data were processed

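The authors deposited whole-number counts of UMIs per cell and gene, built with seqc per the labels' protocols and on mm10 per the submitters' processing notes, with a hashtag classification, a tag list and cluster numbers. The sources used here do not say how tags were classified or clusters made. The matrix held 13118 cells and 16800 gene columns with 16789 symbols, and a symbol that occurred in more than 1 column (11 in all) got their sum. Loci are those of GENCODE M21, which held 16295 of the symbols. The 5606 cells that the authors called doublets and the 33 without a class were left out, which left 7479, of which 0 had fewer than 500 UMIs.

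UMIs were summed per population and cluster, scaled to CPM and compared as log2 ratios of CPM + 5 with exact binomial 95% intervals, which cover counting error only, as do the intervals of shares. Cells under 1500 UMIs were left out where cells were thinned. The computation was tested on simulated counts. The 31 gene lists and the cells described were chosen with earlier results of these data known. Named were the 15 highest and 15 lowest genes against the other clusters, the 10 and 10 of each spleen comparison, the 8 and 8 of each tissue comparison, the 6 and 6 of the fasting difference, and members of the lists. Of these, and of the genes compared with clusters 2 to 5, the text gives a selection. The result of 1 gene is not reported here. Alternatives were TMM factors, totals without ribosomal and mitochondrial genes, the same weight per cell, thinned cells, other minimum levels, the highest cell left out, doublets kept, cells with T cell or myeloid genes left out, and each population left out in turn. Python 3.11.15, numpy 2.4.6, pandas 2.3.3, scipy 1.17.1, matplotlib 3.10.9, R 4.3.3 and edgeR 4.0.16 (TMM factors only) were used.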

Additional observations from a re-analysis of the deposited data

Results flagged for a closer look

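Some genes had ratios of opposite sign on both sides of a comparison whose difference could not be tested, since each side was 1 population. The value given is the difference of the 2 log2 ratios. With fasting in the spleen, 6 genes were higher in fasted than in ad libitum cells of cluster 1 and lower in fasted than in ad libitum cells of the pooled other clusters: Kcnj8 (difference 1.21), Cma1 (0.75), Ly6c2 (0.67), Klra9 (0.57), S1pr5 (0.55) and Gzma (0.23). Single clusters did not all follow the pool: in cluster 2 the log2 ratio of fasted to ad libitum cells was above 0 for all 6 (0.74 for Kcnj8, 0.53 for Cma1, 0.07 for Ly6c2, 0.13 for Klra9, 0.19 for S1pr5 and 0.34 for Gzma). For Ly6c2 it was also above 0 in clusters 3 and 5, and for Cma1 in clusters 4 and 5. In cluster 2 the interval left out 0 only for Cma1 and Gzma, and in thinned cells the ratio of Cma1 there was -0.39. The intervals of Cma1 in clusters 4 and 5 held 0. In thinned cells of cluster 1 the ratio of Gzma was -0.014. For Ltb (-0.81) and Gpi1 (-0.42), a glycolytic enzyme, the signs were the other way round. Klra9 is a Ly49 gene whose reads may be divided with its near copies.

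Between bone marrow and spleen, Isg15 and Cd160 were higher in bone marrow after refeeding and lower there under ad libitum feeding. The difference, refed minus ad libitum, was 1.95 for Isg15 and 1.05 for Cd160. These rest on 32 refed and 47 ad libitum bone marrow cells, and 12 of the refed cells had at least 3 UMIs of Cd3 genes, against 6 of the ad libitum cells. None of these differences was tested.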

How the results depend on the processing

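No paired analysis was possible because each population is 1 sample and no replicate numbers link them. The tumour against spleen comparison and the fasted bone marrow pair were not run, with under 30 cells. Of the single-gene values under the alternatives 3466 kept their call and direction, 225 moved and 27 turned direction. Counts of genes moved by more than 1.5 times as follows, with higher before lower throughout; the cause was not tested beyond what each setting does.

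Against the other clusters, with 3 higher and 23 lower, the counts were 1 and 38 with TMM factors, 5 and 36 with totals without ribosomal and mitochondrial genes, 7 and 50 at 20 CPM, and 14 and 128 with no minimum. With doublets kept they were 20 and 125, and in the 4 spleen populations alone, an alternative chosen after seeing the data, 0 and 5. The higher count alone moved to 1 with cells weighted alike, 16 with thinned cells, 1 without the highest cell, 24 against the 2 most similar clusters and 5 without cells with T cell or myeloid genes. The lower count moved to 65 with populations pooled. Leaving out 1 population at a time gave 0 to 18 higher and 11 to 63 lower genes, with 18 and 63 without the fasted spleen and 0 and 11 without the ad libitum bone marrow.

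For the fasting difference (89 and 47) they were 42 and 78 with TMM factors, 197 and 121 at 20 CPM, and 371 and 223 with no minimum, and totals without ribosomal and mitochondrial genes gave 129 lower. For fasted against ad libitum (86 and 65) those totals gave 138 and 129, 20 CPM gave 241 and 163, no minimum 370 and 249, and TMM factors 51 higher. For refed against fasted (60 and 104) TMM factors gave 108 and 45, those totals 111 and 163, 20 CPM 139 and 276, no minimum 215 and 439, and thinned cells 91 higher. For refed against ad libitum (19 and 22) those totals gave 41 and 59, thinned cells 51 and 68, 20 CPM 79 and 129, and no minimum 164 and 222. For ad libitum against naive (43 and 43) they were 77 and 74, 66 and 93, 122 and 134, and 195 and 214 in that order. For the ad libitum bone marrow pair (83 and 129) 20 CPM gave 174 and 203, no minimum 238 and 238, those totals 164 higher, the highest cell left out 32 higher and thinned cells 73 lower. For the refed bone marrow pair (143 and 202) no minimum gave 327 and 339, the highest cell left out 64 and 308, those totals 296 higher, 20 CPM 268 higher, thinned cells 64 lower and cells with Cd3 genes left out 123 lower. Those totals moved the median of all genes by 0.107 (log2) in the refed bone marrow pair, and other scalings moved it by 0.1 or less.

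Shares of cells fell with thinning. Not thinned and at 1000 UMIs they were 76.6% and 59.8% for Klra4, 68.3% and 36.3% for Klra7, 71.8% and 47.6% for Klra8, 54.2% and 29.5% for Klra9, 44.2% and 12.2% for Itgam, 36.9% and 9.39% for Cd27, 25% and 7.83% for Klrg1, and 80.8% and 42.9% for Gzmb.

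Values that turned against clusters 3 and 4 alone were Camk2n1 (-0.060), Phactr3 (-0.034), Hist1h1b (0.066), Ube2c (0.32), Cenpf (0.51), Birc5 (0.15), Spc24 (0.25), Top2a (0.43), Prc1 (0.24), Hist1h2ae (0.18), Nusap1 (0.47), Cdk1 (0.30), Cdca8 (0.29), Hist1h3e (0.23) and H2afx (0.50). Thinned cells turned Cks2 (-0.13) and Cxcr4 (0.078) in the fasting difference, Coro7 (-0.11), Nfkbib (0.16) and Cxcr4 (0.67) in refed against ad libitum, Hsph1 (0.014) in ad libitum against naive, and Cd3e (-0.55), Hist1h2ae (-2.08) and Cd27 (-0.15) in the ad libitum bone marrow pair. There Hist1h2ae was -0.10 without its highest cell and Cd3d -0.39 without cells with Cd3 genes, and without those cells Il7r was -0.34 in the refed pair.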
